A study of Rattus norvegicus with 24 samples.

Results

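The strain difference of the 3-day salt response was the log ratio of a rat pair of the Dahl salt-sensitive SS strain minus that of a rat pair of SS-13BN/Mcw. It rested on 12 of the 24 arrays of the series, chosen by their titles, which name the strain, the time of 3 days and the rats on each array. These were 6 arrays of 3 rat pairs in each strain. Each array carried total kidney RNA of 2 rats of 1 strain, titled LS and HS and taken here as low and high salt, with 1 rat in Cy5 and the other in Cy3, and each pair was hybridised again with the dyes exchanged. A probe entered where at least 2 of 3 pairs of each strain had a value on both arrays, which 824 of 1766 measured probes met, and 704 of these had a value in all 6 pairs. The groups were kidneys of SS rats (pairs of rats 1 to 3 with rats 7 to 9 of that strain) and kidneys of SS-13BN/Mcw rats (the same numbers in the other strain), both 3 days after the change of salt. SS-13BN/Mcw is a consomic strain, in which chromosome 13 of the Brown Norway rat replaces that of SS while the rest of the genome is that of SS. No rat was shared between the strains. Age, sex and salt content of the chow were not given in the sources used here, and neither was the region of kidney used. A ratio between 2 kidneys holds no level of a gene, so the labelled tissue could not be checked against the level of its markers.

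Rats of the SS strain become hypertensive and develop kidney injury when salt intake rises, and the Brown Norway chromosome 13 lessens both. Several gene groups are known for a part in this disease. In the nephron, 11-beta-hydroxysteroid dehydrogenases set how much active glucocorticoid reaches its receptors, Hsd11b1 by regenerating it and Hsd11b2 by inactivating it in the cells that reabsorb sodium under aldosterone. Fibrillar collagens and their chaperones build the scar tissue of injured kidney, platelet-derived growth factors stimulate the cells that make it, and the proximal tubule, which reabsorbs most of the filtrate, carries peptidases and metabolic enzymes that decline when it is damaged.

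Values are given as deposited log ratios, whose log base is not given in the sources used here, so no folds are stated. The numerator is not given either: a positive value may mean more RNA in the high-salt or in the low-salt kidney, and a positive strain difference means only that the ratio lay higher in SS. One rat-to-rat direction was assumed for every array and both strains. A pair value is the mean of its 2 arrays after each was centred on its median. Once the mean of each dye orientation was removed, both arrays of a pair moved together in each of the 6 pairs (r across probes from 0.331 to 0.712), although without that step the lowest r was -0.0595 and the highest 0.546. With 1 array of each pair turned by its dyes instead, the sign was the other way for 42 of 90 strain differences given below, 0 probes passed for the strain difference and 479 for the mean of both strains. Where the assumed direction holds, a turned value comes from the gap between the 2 dye orientations. Its sign then need not follow a strain difference that both share. Pdgfa had -0.65 and -0.70 by orientation and 0.029 when turned. The strain difference of a probe from the arrays with the low-numbered rat in Cy5 followed that from the arrays with this rat in Cy3 (r = 0.748 across 704 probes, which are not independent of each other, and the same rats). Pairs differed in how far their values spread, with an SD across probes of 0.359, 0.214 and 0.197 in SS and 0.222, 0.248 and 0.341 in SS-13BN/Mcw. The slides of SS were numbered 36 to 41 and those of SS-13BN/Mcw 28 to 31, 34 and 35, so slide order and strain cannot be told apart. The titles do not say whether rats of a strain were littermates. The p-values rest on a spread pooled over the rat pairs at 3 days and those of the overnight arrays. By the titles, the low-numbered rats of each strain were on arrays of both times, so these pairs are not independent. Deviations of pairs sharing such a rat had r from -0.0372 to 0.635 between the times. From the pairs at 3 days alone, the smallest adjusted p for the strain difference was 0.276 (limma) instead of 0.114.

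No probe differed between the strains past the threshold. Of 824 probes, 0 had an adjusted p under 0.05 (0 percent, the smallest being 0.114, limma with Benjamini-Hochberg adjustment), and 69 had an unadjusted p under 0.05, against 41.2 that a uniform distribution of p would give. Of these, 36 were positive, with SS higher (4.37 percent), and 33 negative (4 percent). The 3 pairs of SS lay wholly above the 3 pairs of SS-13BN/Mcw for 69 probes (8.37 percent) and wholly below for 61 (7.4 percent). The median difference was 0.012, the quartiles were -0.098 and 0.13, and 53.3 percent of probes were positive. The median standard error (SE) of a difference was 0.13. Every gene below is therefore described by its values, and none of its strain differences passed the test over all probes. With arrays scaled to one spread 7 probes passed, after quantile normalization 5, and in a fit of single arrays with dye orientation as a term 7. Pdgfa, Gnrhr, Nid1 and Serpinh1 were among them in each of these 3 settings, Hsd11b1 in the first and last, Tubb5 and Acsl3 in the first, Prep in the second, and Stmn1 and Col1a1 in the last. These settings use the same arrays, so a gene that recurs in them gains no independent support. With arrays turned, without centring, with all 3 pairs required, the compared groups alone, robust eBayes or either replicate block, 0 passed. Where 1 dye orientation was enough 1 passed. From the arrays with the low-numbered rat in Cy5 2 passed, and from those with it in Cy3 0. Without pair 3 of SS, or without pair 2 of SS-13BN/Mcw, 1 probe passed. Without any other single pair at 3 days 0 passed (smallest adjusted p from 0.106 to 0.378).

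**Figure D1:**
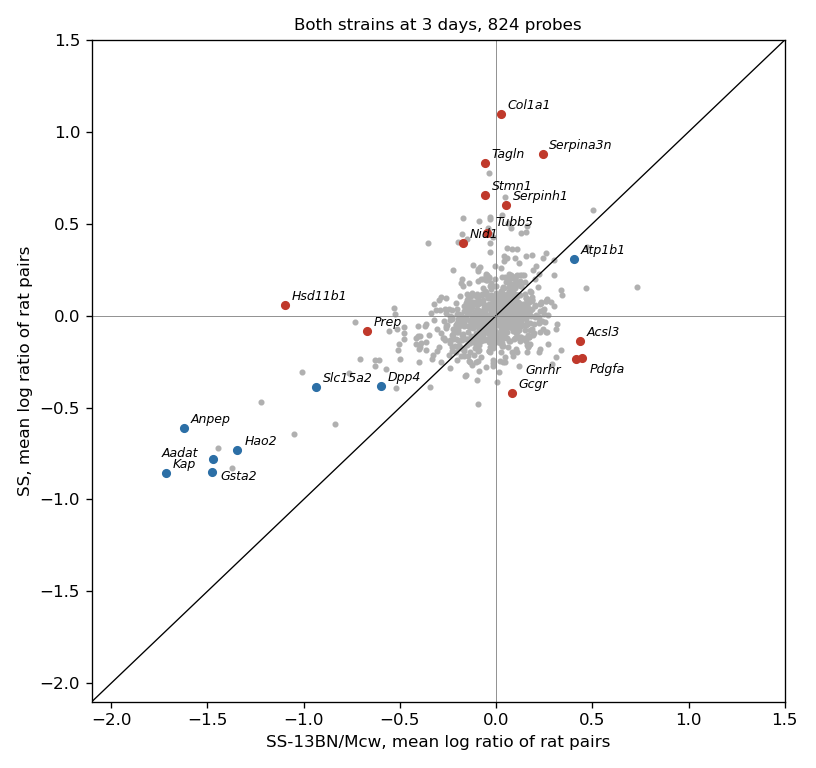
Mean log ratio (deposited units) of the rat pairs of SS on the vertical axis against SS-13BN/Mcw on the horizontal axis at 3 days, 1 point for each of 824 probes, with the line of equal values. Red genes were named for their strain difference and blue ones passed for the mean of both strains. Hsd11b1 lies left of the line at -1.10 in SS-13BN/Mcw and 0.060 in SS, and Kap and Aadat have negative means in both strains.

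The leading gene on the positive side was Hsd11b1, on the substituted chromosome 13. Its pair values were 0.40, 0.39 and -0.62 in SS and -0.94, -1.20 and -1.15 in SS-13BN/Mcw. All 3 SS-13BN/Mcw pairs were strongly negative, pairs 1 and 2 of SS were positive, and pair 3 of SS was negative but above every SS-13BN/Mcw pair. The difference was 1.16 ± 0.23 (95% confidence interval 0.66 to 1.65, unadjusted p = 0.000277, adjusted p = 0.114). From the arrays with the low-numbered rat in Cy5 it was 1.36, and from the others 0.95. Without pair 3 of SS the difference was 1.49 with an adjusted p of 0.000222, the only probe that then passed. That pair was the lowest of SS, so leaving it out had to raise the difference. Single arrays of SS-13BN/Mcw ran from -1.41 to -0.50, and those of SS from -0.68 to 0.59.

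Its counterpart Hsd11b2 lay on the other side. The SS pairs stood at -0.24, -0.27 and 0.044 and the SS-13BN/Mcw pairs at 0.26, 0.058 and 0.49, without overlap, although pair 3 of SS was close to the lowest SS-13BN/Mcw pair. The difference was -0.43 ± 0.13 (adjusted p = 0.328). The mineralocorticoid receptor Nr3c2, which Hsd11b2 shields from glucocorticoid, had overlapping pair values and a difference of -0.22 ± 0.15. Sgk1, a kinase induced by corticosteroids, was negative in every pair, with -0.25, -0.0051 and -0.26 in SS above -0.44, -0.31 and -0.43 in SS-13BN/Mcw (difference 0.22 ± 0.16, adjusted p = 0.668). The list of renin-angiotensin, corticosteroid and kinin genes had 5 of 7 measured members in the comparison, 2 positive and 3 negative, with 0 called. Its median difference of -0.077 has no firm sign, being 0.073 where 1 dye orientation was enough and 0.0033 and 0.061 without pair 3 of SS or of SS-13BN/Mcw.

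Pdgfa and Gnrhr led the genes with higher ratios in SS-13BN/Mcw. For Pdgfa, a chain of platelet-derived growth factor, the SS pairs were -0.30, -0.21 and -0.18 and the SS-13BN/Mcw pairs 0.40, 0.17 and 0.76. Every SS pair was negative and every SS-13BN/Mcw pair positive. The difference of -0.68 ± 0.13 had the smallest p of all probes (unadjusted p = 0.00021, adjusted p = 0.114), and without pair 2 of SS-13BN/Mcw, its lowest pair, it was -0.81 with an adjusted p of 0.0257. For Gnrhr, the receptor of gonadotropin-releasing hormone, the SS pairs were -0.52, -0.20 and 0.0079 and the SS-13BN/Mcw pairs 0.63, 0.21 and 0.40. SS-13BN/Mcw was positive throughout and SS negative or near 0, with a difference of -0.65 ± 0.14 (adjusted p = 0.116). The glucagon receptor Gcgr showed the same order at lower ratios, with -0.72, -0.24 and -0.31 in SS against 0.12, -0.036 and 0.17 in SS-13BN/Mcw and a difference of -0.51 ± 0.15 (adjusted p = 0.328).

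**Figure D2:**
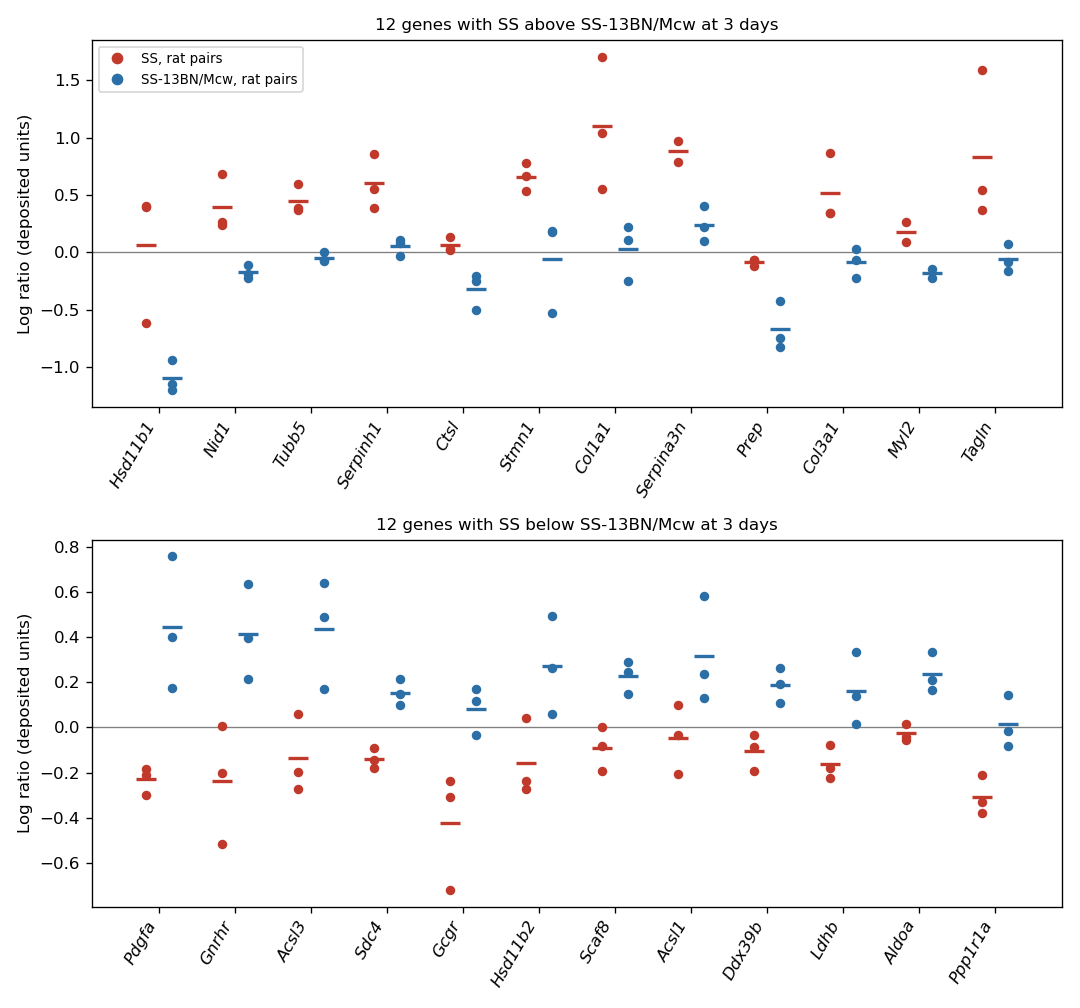
Log ratio (deposited units) of each rat pair at 3 days for the 12 genes per direction that the naming rule gave, SS in red and SS-13BN/Mcw in blue, with a bar at the mean. Pair values of the strains do not overlap for any gene shown, as the rule required, with pairs that lack an array left out (Serpina3n and Myl2). Hsd11b1 has the widest gap in means at 1.16, and pair 1 of SS stands apart for Col1a1 at 1.71 and Tagln at 1.59.

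To show what lies before genes of both sides, the 120 bases upstream of the annotated start of 4 of them are printed from RefSeq (build GRCr8, 5′ to 3′ on the gene's strand). Capitals mark matches to motifs searched on both strands: the paired heat shock units GAANNTTC and TTCNNGAA, the GC box GGGCGG, the CCAAT box CCAAT and the TATA box TATAAA. Over 33469 promoters these windows held them in 3.66, 3.66, 23.7, 19.9 and 6.66 percent. Serpinh1, whose ratio was higher in SS, lies on the minus strand at chr1:163062977-163063096, Tubb5, also higher in SS, on the plus strand at chr20:2917457-2917576, and Pdgfa and Acsl3, lower in SS, on the plus strands at chr12:20759246-20759365 and chr9:87563481-87563600.
Serpinh1: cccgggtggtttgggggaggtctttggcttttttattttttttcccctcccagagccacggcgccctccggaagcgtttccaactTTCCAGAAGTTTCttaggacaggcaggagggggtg
Tubb5: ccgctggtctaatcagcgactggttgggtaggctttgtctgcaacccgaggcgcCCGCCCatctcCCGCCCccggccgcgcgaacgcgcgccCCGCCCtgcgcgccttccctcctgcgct
Pdgfa: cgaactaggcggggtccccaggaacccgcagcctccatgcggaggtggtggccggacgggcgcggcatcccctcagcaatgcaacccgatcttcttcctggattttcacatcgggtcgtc
Acsl3: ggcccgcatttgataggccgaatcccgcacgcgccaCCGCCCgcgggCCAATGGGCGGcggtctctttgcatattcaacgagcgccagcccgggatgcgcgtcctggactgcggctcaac
Both heat shock units overlap in Serpinh1, starting at positions -35 and -30 from the start of the gene. Tubb5 holds GC boxes alone, Acsl3 GC boxes at -84 and -68 with a CCAAT box at -73 right before the second of them, and Pdgfa none of these letters. A match is a description of letters and not a measured site.

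Several extracellular matrix genes had higher ratios in SS. Serpinh1, a collagen chaperone of the endoplasmic reticulum, had pair values of 0.86, 0.55 and 0.39 in SS and 0.085, 0.10 and -0.032 in SS-13BN/Mcw. All SS pairs stood well above all SS-13BN/Mcw pairs, which were near 0, and the difference was 0.55 ± 0.14 (adjusted p = 0.193). Nid1, which links laminin to collagen in basement membranes, stood at 0.68, 0.26 and 0.24 against -0.11, -0.19 and -0.22, positive in each SS pair and negative in each SS-13BN/Mcw pair (difference 0.57 ± 0.12, adjusted p = 0.116). The fibrillar collagen chain Col1a1 had 1.71, 0.55 and 1.04 in SS and 0.11, 0.22 and -0.25 in SS-13BN/Mcw. Its difference of 1.07 ± 0.31 was large but the SS pairs were wide apart, and it did not pass (adjusted p = 0.299). Col3a1, the chain of type III collagen, stood at 0.87, 0.34 and 0.34 against -0.22, 0.029 and -0.067 (difference 0.60 ± 0.21, adjusted p = 0.455). The laminin chain Lamb2, which is outside the naming rule, lay on the other side. It differed by -0.28 with the low-numbered rat in Cy5 and -0.27 with it in Cy3.

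Over the whole matrix list 15 of 24 measured genes were in the comparison, 11 with a positive difference and 4 negative, with 0 called. The pairs of 4 of these genes lay wholly above in SS (8.37 percent of all probes did) and of 0 wholly below (7.4 percent). Their median difference was 0.14, against 0.012 for all probes. The median ratio of the list in pairs 1, 2 and 3 was 0.68, 0.30 and 0.012 in SS and 0.035, 0.013 and 0.043 in SS-13BN/Mcw. Pair 1 of SS was highest and its pair 3 lay just below the SS-13BN/Mcw pairs, so the list as a whole overlapped between strains.

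The microtubule genes Tubb5 and Stmn1, the smooth muscle gene Tagln and the myosin light chain Myl2 were also among the leading ones. Tubb5, a beta-tubulin, had 0.37, 0.60 and 0.38 in SS and -0.076, -0.00047 and -0.068 in SS-13BN/Mcw (difference 0.50 ± 0.12, adjusted p = 0.137). Stmn1, which destabilises microtubules, had 0.53, 0.66 and 0.78 against 0.18, 0.19 and -0.53, where pair 3 of SS-13BN/Mcw was far below the others (difference 0.71 ± 0.20, adjusted p = 0.282). Tagln, an actin-binding protein of smooth muscle, reached 1.59, 0.37 and 0.54 in SS against -0.17, 0.072 and -0.083, with pair 1 of SS far above the rest (difference 0.89 ± 0.34, adjusted p = 0.516). Myl2, a regulatory light chain of myosin, was measured in 2 pairs of each strain, at 0.087 and 0.27 (no value from both arrays in pair 1) in SS and -0.14 and -0.22 (no value from both arrays in pair 3) in SS-13BN/Mcw (difference 0.36 ± 0.13, adjusted p = 0.516). The one array of pair 3 of SS-13BN/Mcw with a value stood at 0.098, above pair 2 of SS, so the separation does not hold with it. Of 13 smooth muscle, mesangial and actin genes 8 were positive and 5 negative with 0 called, and their median difference was 0.08. The actin-severing protein cofilin (Cfl1) differed by 0.32 ± 0.13 and tropomyosin Tpm1 by 0.19 ± 0.15, both with overlapping pairs. Pdgfa, which the list holds too, lay on the negative side.

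Injury and acute phase genes had 10 of 12 differences positive, with 0 called and a median of 0.10. Serpina3n, a secreted protease inhibitor of the acute phase, stood at 0.97 and 0.78 (no value from both arrays in pair 3) in SS and 0.40, 0.22 and 0.099 in SS-13BN/Mcw. These 5 pairs were positive and those of SS higher, with a difference of 0.64 ± 0.18 (adjusted p = 0.299). Pair 3 of SS was left out because 1 of its arrays lacked a value, and its other array, at 0.17, lay below pairs 1 and 2 of SS-13BN/Mcw, so the separation does not hold with it, and the difference was then 0.40. Clusterin (Clu), a secreted chaperone, stood at 0.51, 0.32 and 0.21 against 0.10, -0.11 and -0.079 (difference 0.37 ± 0.15, adjusted p = 0.528). The 2 negative members were the growth arrest gene Gadd45a at -0.39 ± 0.22 and the hyaluronan receptor Cd44 at -0.30 ± 0.21, in both of which pair 3 of SS lay apart from pairs 1 and 2 (Gadd45a -0.62, -0.44 and 0.24). The metallothionein Mt2A had nearly the same mean in both strains, 0.30 in each, and a difference of 0.0033 ± 0.13 (95% confidence interval -0.27 to 0.28), negative at -0.014, -0.0089 and -0.034 without centring, with arrays scaled and after quantile normalization.

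Among inflammation, adhesion and immune cell genes 5 of 6 were positive with a median of 0.20 and 0 called, and no member had pairs without overlap. Nfkb1, a subunit of NF-kappa-B, differed by 0.27 ± 0.12, the class II antigen gene RT1-Ba by 0.35 ± 0.26, B2m, the light chain of class I antigens, by 0.23 ± 0.19 and the interferon response factor Irf1 by 0.16 ± 0.20. In each of these 4 genes pair 1 of SS was the highest of the 6 pairs and pair 3 the lowest of SS.

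Of the chaperone, protein folding and proteasome genes 14 of 19 were positive, 6 with SS pairs wholly above (8.37 percent of all probes) and 0 wholly below (7.4 percent), 0 called. The median of the list was 0.10, 0.058 and 0.056 in the SS pairs and -0.0068, 0.0034 and 0.012 in the SS-13BN/Mcw pairs, which do not overlap but lie close together. After Serpinh1 came calreticulin (Calr), a chaperone that binds calcium, at 0.29, 0.36 and 0.32 against 0.25, 0.13 and 0.082 (difference 0.17 ± 0.094). The proteasome ATPase Psmc5 differed by 0.15 ± 0.089 and Tcp1, a subunit of the cytosolic chaperonin, by 0.20 ± 0.12. Both came from 1 dye orientation. With the low-numbered rat in Cy5 the differences were 0.31 and 0.44, and with it in Cy3 -0.0086 and -0.040. Both proteases among the leading genes were higher in SS. Ctsl, a lysosomal cysteine protease, stood at 0.033, 0.018 and 0.13 against -0.21, -0.25 and -0.50 (difference 0.38 ± 0.11, adjusted p = 0.282). Prep, a peptidase that cuts after proline, stood at -0.12, -0.064 and -0.064 against -0.43, -0.75 and -0.83 (difference 0.59 ± 0.18, adjusted p = 0.328), so that it was close to 0 in SS and clearly negative in SS-13BN/Mcw.

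Proximal tubule genes held the most negative ratios in both strains. For the mean of both strains 8 of 9 metabolic markers passed the test as negative, as did 3.52 percent of all probes. The list was chosen with earlier results of these data known, so its share is no test of the list. The 9 metabolic markers had median ratios of -1.50, -0.46 and -0.30 in the SS pairs and -1.15, -1.54 and -1.41 in the SS-13BN/Mcw pairs. Pair 1 of SS lay within the range of SS-13BN/Mcw and pairs 2 and 3 lay far above it. The median difference of the list was 0.63, with 8 of 9 positive and 0 called. Kap, a kidney protein under androgen control, stood at -1.51, -0.46 and -0.61 in SS and -1.71, -1.94 and -1.49 in SS-13BN/Mcw (difference 0.86 ± 0.33, adjusted p = 0.528). Akr7a3, an aldehyde reductase, stood at -0.77, -0.26 and -0.38 against -0.89, -1.27 and -1.50, the one member whose pairs did not overlap (difference 0.75 ± 0.31, adjusted p = 0.528). The aminotransferase Aadat differed by 0.69 ± 0.37 and the glutathione transferase Gsta2 by 0.63 ± 0.36. In RNA of bulk kidney, another number of proximal tubule cells and another amount of RNA per cell cannot be told apart. Which of the kidneys compared held more is not known either.

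The 8 brush border and transport genes were more mixed, with a median difference of 0.25, 5 positive, 3 negative and 0 called. SS pairs lay wholly above for 1 of them (8.37 percent of all probes) and wholly below for 1 (7.4 percent). Anpep, a brush border aminopeptidase, stood at -1.66, -0.068 and -0.10 in SS and -1.16, -1.91 and -1.78 in SS-13BN/Mcw. Pair 1 of SS lay with the SS-13BN/Mcw pairs and its pairs 2 and 3 near 0, and the difference was 1.01 ± 0.45 (adjusted p = 0.565). The peptide transporter Slc15a2 stood at -0.76, -0.25 and -0.15 against -0.76, -0.89 and -1.16 (difference 0.55 ± 0.22). The endocytic receptor megalin (Lrp2) had -0.88 and 0.27 (no value from both arrays in pair 3) in SS and -0.98 and -1.03 (no value from both arrays in pair 2) in SS-13BN/Mcw (difference 0.70 ± 0.41), and the arrays of pair 2 of SS were far apart, at 1.15 and -0.61. Fabp3, a fatty acid carrier, was on the other side without overlap, at 0.092, -0.22 and -0.14 in SS against 0.19, 0.34 and 0.25 in SS-13BN/Mcw (difference -0.35 ± 0.13). The median ratio of this list was -0.58, -0.17 and -0.10 in the SS pairs and -0.43, -0.60 and -0.65 in the SS-13BN/Mcw pairs. Pairs 2 and 3 of SS thus stood above the SS-13BN/Mcw pairs in the medians of both proximal tubule lists, but not in every member. For the brush border peptidase Dpp4, the arrays of pair 2 of SS (-0.44 and -0.48) lay between those of pair 1 of SS-13BN/Mcw (-0.22 and -0.56). The part of this in the differences of other genes was not tested.

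Markers of the distal nephron mostly had lower ratios in SS. The difference was negative for each of the 5 markers of thick ascending limb and distal tubule in the comparison, and for 385 of all 824 probes, with a list median of -0.15 and 0 called. Their median ratio was -0.35, -0.19 and -0.094 in the SS pairs and -0.061, -0.017 and 0.062 in the SS-13BN/Mcw pairs, without overlap. Ppp1r1a, an inhibitor of protein phosphatase, stood at -0.38, -0.33 and -0.21 against -0.082, -0.017 and 0.14 (difference -0.32 ± 0.11, adjusted p = 0.446). The growth factor Egf stood at -0.45, -0.19 and -0.094 against -0.061, 0.056 and 0.062 (difference -0.26 ± 0.12, adjusted p = 0.565). The sodium-potassium-chloride cotransporter Slc12a1 differed by -0.15 ± 0.11 and uromodulin (Umod), the main protein of normal urine, by -0.15 ± 0.16, both with overlapping pairs.

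Of 5 collecting duct markers 4 were negative, 3 of them with SS pairs wholly below (7.4 percent of all probes), and the median was -0.23 with 0 called. Besides Hsd11b2 these 3 were Scnn1a, the alpha subunit of the epithelial sodium channel, at 0.074, 0.061 and 0.086 in SS against 0.21, 0.26 and 0.38 in SS-13BN/Mcw (difference -0.21 ± 0.085, adjusted p = 0.528), and Fxyd4, a regulator of the sodium pump, at -0.28, -0.042 and -0.18 against -0.034, 0.030 and 0.20 (difference -0.23 ± 0.099). The water channel Aqp3 differed by -0.26 ± 0.12 with overlapping pairs. Among the 8 sodium pump, channel and cotransporter genes 6 were negative and 2 positive with a median of -0.18 and 0 called. Fxyd2, another regulator of the pump, stood at -0.044, -0.081 and -0.12 against 0.16, 0.15 and 0.049 (difference -0.20 ± 0.095), while the cotransporter Slc12a2 was positive at 0.25 ± 0.14.

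**Figure D3:**
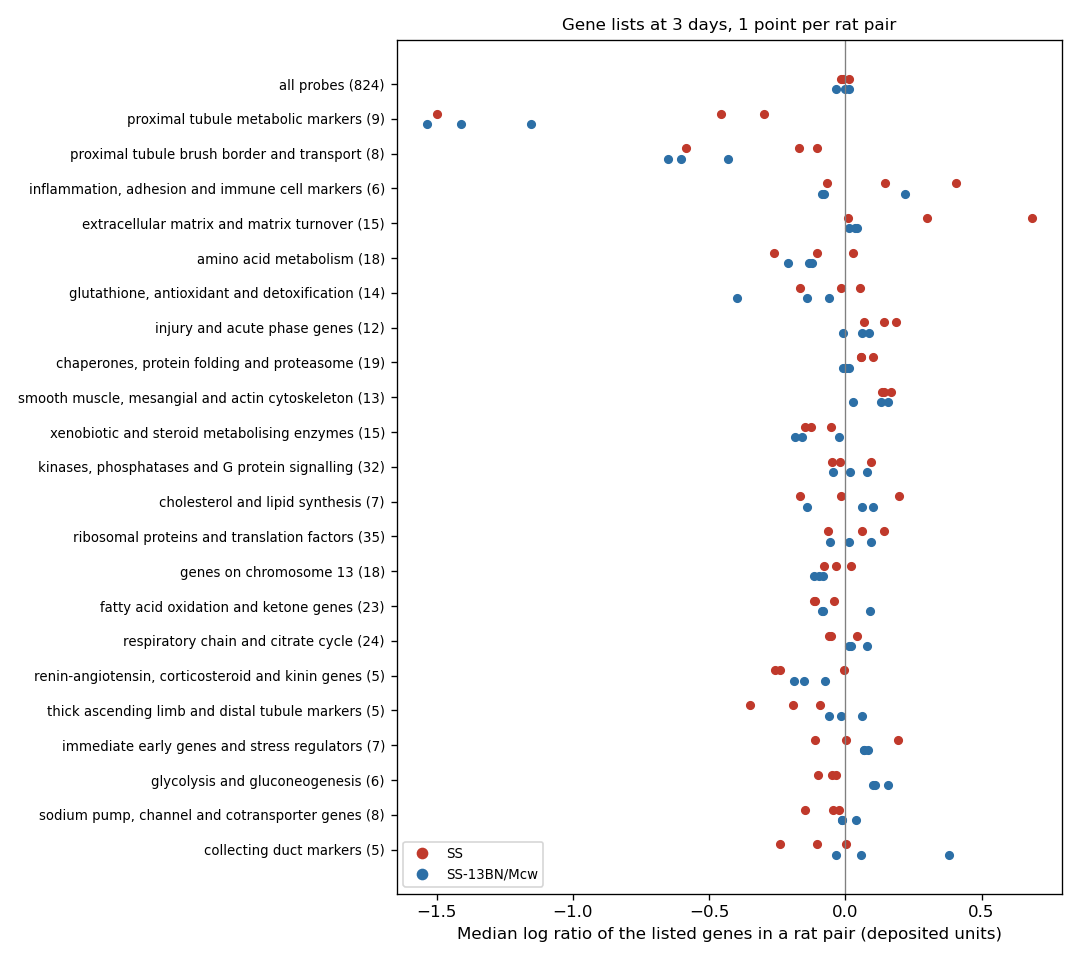
Median log ratio (deposited units) of the genes of each list in each rat pair at 3 days, SS in red and SS-13BN/Mcw in blue, with the number of genes in the comparison in brackets and lists in order of their median difference below all probes. The proximal tubule metabolic markers lie farthest from 0, with pair 1 of SS at -1.50 among the SS-13BN/Mcw pairs, and the thick ascending limb and glycolysis lists separate the strains with SS lower.

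Genes of glucose and fatty acid use were among those with the lowest values in SS relative to SS-13BN/Mcw. Acsl3 and Acsl1 activate fatty acids by joining them to coenzyme A. Acsl3 stood at 0.059, -0.20 and -0.27 in SS and 0.17, 0.64 and 0.49 in SS-13BN/Mcw (difference -0.57 ± 0.13, adjusted p = 0.137), and Acsl1 at 0.10, -0.20 and -0.032 against 0.13, 0.24 and 0.58 (difference -0.36 ± 0.12, adjusted p = 0.436). The fatty acid oxidation list as a whole had 11 positive and 12 negative of 23 with a median of -0.016 (0.025 without pair 1 or pair 2 of SS-13BN/Mcw), 5 with SS pairs wholly below (7.4 percent of all probes), 0 wholly above (8.37 percent) and 0 called. Its dehydrogenase Hsd17b10 was positive at 0.29 ± 0.11. Of 6 glycolysis and gluconeogenesis genes 4 were negative and 2 positive, 3 with SS pairs wholly below (7.4 percent of all probes) and 0 called, with a median of -0.16. The median ratio of the list was -0.10, -0.049 and -0.035 in the SS pairs and 0.11, 0.10 and 0.16 in the SS-13BN/Mcw pairs, without overlap. Ldhb, a subunit of lactate dehydrogenase, stood at -0.22, -0.18 and -0.080 against 0.014, 0.14 and 0.34 (difference -0.32 ± 0.11, adjusted p = 0.436), and the aldolase Aldoa at 0.015, -0.041 and -0.053 against 0.21, 0.17 and 0.34 (difference -0.26 ± 0.092, adjusted p = 0.446). The hexokinase Hk1 differed by -0.18 ± 0.092 and the enolase Eno1 by -0.15 ± 0.10.

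Genes of the respiratory chain and citrate cycle were negative in 18 of 24, with a median of -0.054, 3 with SS wholly below (7.4 percent of all probes), 2 wholly above (8.37 percent) and 0 called. Atp5f1c, a subunit of ATP synthase, differed by -0.20 ± 0.11, cytochrome c (Cycs) by 0.35 ± 0.20, the oxidase subunit Cox5b by -0.21 ± 0.13 and the assembly factor Ndufaf3 by 0.13 ± 0.089. Among 18 genes of amino acid metabolism 10 were positive and 8 negative, with a median of 0.14 that was -0.056 without pair 3 of SS and -0.035 over probes with all 6 pairs, 4 with SS pairs wholly above (8.37 percent of all probes), 1 wholly below (7.4 percent) and 0 called. Glutamine synthetase (Glul) stood at -0.10, -0.043 and 0.18 in SS and -0.25, -0.69 and -0.62 in SS-13BN/Mcw (difference 0.53 ± 0.21). Ahcy, which breaks down S-adenosylhomocysteine, stood at -0.19, -0.072 and 0.012 against -0.43, -0.56 and -0.67 (difference 0.47 ± 0.20) and the ornithine aminotransferase Oat at -0.39, -0.13 and -0.19 against -0.55, -0.85 and -0.71 (difference 0.47 ± 0.21). Each of these 3 had a lower ratio in every SS-13BN/Mcw pair than in any SS pair, while Tdo2, an enzyme of tryptophan breakdown, differed by -0.42 ± 0.19.

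Glutathione, antioxidant and detoxification genes were positive in 11 of 14, with a median of 0.13, 1 wholly above (8.37 percent of all probes), 1 wholly below (7.4 percent) and 0 called. Glutathione synthetase (Gss) stood at -0.19, -0.016 and 0.033 against -0.26, -0.32 and -0.64 (difference 0.35 ± 0.19), the peroxiredoxin Prdx6 differed by 0.42 ± 0.26, and the quinone reductase Nqo1 was lower in SS at -0.18, -0.080 and -0.0099 against 0.14, 0.14 and 0.046 (difference -0.20 ± 0.10). Of 15 xenobiotic and steroid metabolising enzymes 8 were positive and 7 negative with 0 called, and the median of 0.044 was -0.019 with arrays scaled and -0.034 after quantile normalization. Besides Hsd11b1 and Akr7a3 the leading members were the cytochrome Cyp2c6v1 at -0.54 ± 0.17 and the aldehyde dehydrogenase Aldh1a1 at -0.33 ± 0.13. Of 7 genes of cholesterol and lipid synthesis 5 were positive, none had pairs without overlap and 0 were called. The median was 0.036, but -0.019 with arrays scaled and -0.034 after quantile normalization, with the sterol enzymes Msmo1 at -0.29 ± 0.16, Dhcr7 at 0.38 ± 0.26 and Mvd, from 2 pairs of each strain, at -0.15 ± 0.17, and the fatty acid synthase Fasn at 0.061 ± 0.16.

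Ribosomal protein and translation factor genes lay close to 0 in both strains, 19 positive and 16 negative of 35, with a median of 0.021 (-0.0051 after quantile normalization) and 0 called, and none had pairs without overlap. Rpl15, Rpl41, Rpl35a and Rps3a, which are ribosomal proteins, differed by 0.22, -0.17, 0.14 and -0.11. Of 32 kinase, phosphatase and G protein genes 20 were positive and 12 negative with a median of 0.038 and 0 called. Ptpmt1, a phosphatase of mitochondria, stood at 0.62, 0.42 and 0.16 against -0.10, -0.26 and -0.23 (difference 0.60 ± 0.24), the receptor phosphatase Ptprf differed by -0.27 ± 0.13 and the kinase Prkcz by -0.20 ± 0.095. Of 7 immediate early and stress genes 4 were negative with a median of -0.16 and 0 called, and the median was 0.064 from the arrays with the low-numbered rat in Cy5. Ddit3, a transcription factor of endoplasmic reticulum stress, stood at 0.10, -0.080 and -0.040 against 0.24, 0.17 and 0.26 (difference -0.23 ± 0.11), and Egr1, an immediate early transcription factor, spread most widely, with 0.0035, -0.73 and 1.20 in SS and 0.48, 1.28 and 0.45 in SS-13BN/Mcw. Among other genes with lower ratios in SS were the proteoglycan Sdc4 (difference -0.29 ± 0.080, adjusted p = 0.282), Scaf8, which binds RNA polymerase II (difference -0.32 ± 0.099, adjusted p = 0.328), and the RNA helicase Ddx39b (difference -0.29 ± 0.100, adjusted p = 0.436).

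Chromosome 13, the substituted one, held 40 measured genes in the rat gene table of GRCr8, of which 18 were in the comparison. Their median difference was 0.015 (-0.0087 without pair 1 of SS) against 0.012 for all probes, 9 were positive and 9 negative, and 0 were called. SS pairs lay wholly above for 4 of them (8.37 percent of all probes) and wholly below for 1 (7.4 percent). The 4 were Hsd11b1, Glul, the protease Capn2 at -0.16, -0.13 and -0.16 in SS against -0.23, -0.59 and -0.69 in SS-13BN/Mcw (difference 0.35 ± 0.16), and the immunoglobulin receptor Fcgr2a at 1.02, 0.43 and 0.20 against -0.089, 0.12 and 0.065 (difference 0.52 ± 0.27).

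The mean of both strains at 3 days, which asks what stood away from 0 on average whether or not the strains differed, passed for 40 of 824 probes, 11 positive (1.33 percent) and 29 negative (3.52 percent). Across probes the means of the strains were correlated (r = 0.461, 824 probes, which are not independent), and 58 of 704 probes were negative and 24 positive in all 6 pairs. The genes with the smallest p on the negative side were Kap at -1.29 ± 0.17 (adjusted p = 0.00743), Gsta2 at -1.16 ± 0.18 (adjusted p = 0.00852), Aadat at -1.12 ± 0.18 (adjusted p = 0.00852), the brush border peptidase Dpp4 at -0.49 ± 0.080 (adjusted p = 0.00852), Slc15a2 at -0.66 ± 0.11 (adjusted p = 0.00852) and the peroxisomal oxidase Hao2 at -1.04 ± 0.18 (adjusted p = 0.0106). On the positive side they were Serpina3n at 0.56 ± 0.092 (adjusted p = 0.00995), the sodium pump subunit Atp1b1 at 0.36 ± 0.064 (adjusted p = 0.0106), Rbck1, part of a ubiquitin ligase, at 0.23 ± 0.042 (adjusted p = 0.0122), Calr at 0.24 ± 0.047 (adjusted p = 0.0179), Serpinh1 at 0.33 ± 0.068 (adjusted p = 0.0215) and Mt2A at 0.30 ± 0.064 (adjusted p = 0.0215). Their strain differences are those given above for the genes named there, 0.22 ± 0.16 for Dpp4, 0.62 ± 0.36 for Hao2, -0.099 ± 0.13 for Atp1b1 and -0.23 ± 0.084 for Rbck1. The 95% confidence interval of the strain difference spanned 0 for Atp1b1 (-0.38 to 0.18), Mt2A (-0.27 to 0.28), Calr (-0.038 to 0.37), Dpp4 (-0.13 to 0.57), Hao2 (-0.18 to 1.41), Gsta2 (-0.16 to 1.42) and Aadat (-0.11 to 1.49). Rbck1 was positive in all 6 pairs and lower in every SS pair (0.064, 0.18 and 0.085) than in any SS-13BN/Mcw pair (0.40, 0.38 and 0.25). With 1 array of each pair turned by its dyes the mean of Gsta2, Aadat, Slc15a2, Atp1b1 and Mt2A had the other sign, and Serpina3n (0.0026, adjusted p = 0.964), Serpinh1 (0.0050, adjusted p = 0.925) and Dpp4 (-0.0028, adjusted p = 0.952) no longer passed. Without pair 2 of SS-13BN/Mcw, Atp1b1, Rbck1, Calr, Serpinh1, Mt2A and Hao2 no longer passed (adjusted p from 0.0555 to 0.0787). Without pair 3 of that strain Atp1b1, Serpinh1 and Mt2A did not (adjusted p from 0.0543 to 0.091), and without pair 1 of SS Serpinh1 and Mt2A did not (adjusted p = 0.0816 each). In the fit of the compared groups alone Rbck1 did not pass (adjusted p = 0.0543). The count of 40 was 13 without pair 1 of SS and to 8 and 10 without pairs 2 and 3 of SS-13BN/Mcw.

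Overnight values of the strain difference can be set beside those at 3 days, with the reservation that by the titles rats 1 to 3 of each strain were on arrays of both times. A test of the difference between times passed for 0 of 822 probes (0 percent, smallest adjusted p 0.972, limma), and 20 had an unadjusted p under 0.05 where a uniform distribution would give 41.1. With the shared rat as a random block 0 passed and 47 had an unadjusted p under 0.05. Hsd11b1 had a strain difference of 0.17 overnight and 1.16 at 3 days (change 0.98 ± 0.32). Without pair 3 of SS at 3 days, its lowest SS pair, that change was 1.32 with an adjusted p of 0.014, and leaving it out had to raise the change. Pdgfa had -0.027 overnight and -0.68 at 3 days (change -0.65 ± 0.18), Gnrhr -0.076 and -0.65, Hsd11b2 0.11 and -0.43, and Gcgr 0.096 and -0.51. Tubb5 had -0.042 overnight and 0.50 at 3 days, Serpinh1 0.016 and 0.55, and Serpina3n -0.088 and 0.64. Of the proximal tubule genes, Kap had 0.28 overnight and 0.86 at 3 days, Anpep 0.94 and 1.01, Akr7a3 0.89 and 0.75, and Aadat 0.91 and 0.69. Prep had 0.57 and 0.59, and Glul 0.56 and 0.53.

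**Figure D4:**
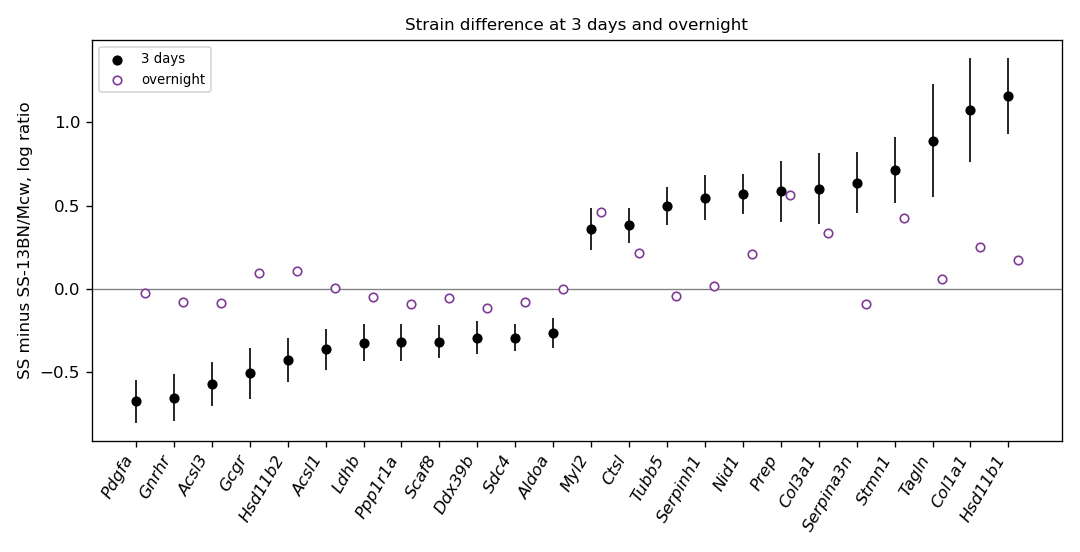
Strain difference (SS minus SS-13BN/Mcw, log ratio in deposited units) of the 24 genes named for it, at 3 days (filled, with the standard error of the fit) and overnight (open). The genes were chosen by their difference at 3 days and not by that overnight. Both times share rats of each strain, and Prep and Myl2 lie away from 0 at both times while Pdgfa and Tubb5 do so at 3 days.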

How the data were processed

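Total RNA of rat kidney was hybridised to 2-colour cDNA arrays. The values analysed are log ratios that the authors deposited, and their log base, numerator, normalization and software are not stated per the labels. Arrays were median-centred, and both dye-swapped arrays of a rat pair were averaged without turning signs. Of 1766 measured probes, 1426 had 1 gene symbol in the platform annotation. limma 3.58.1 (R 4.3.3) fitted 1 mean per strain and time over 12 rat pairs (8 residual degrees of freedom), with eBayes moderation, and p-values were adjusted by Benjamini-Hochberg over all probes at 0.05. The fit took pairs that share a rat between the times as independent. The fit was tested on simulated data with independent pairs, which cannot show what the shared rats do to it.

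Genes were named as the 12 per direction with the smallest p among those whose strains do not overlap, 6 per direction for the mean of both strains, 8 in all for the change between times, and 4 per gene list. The 8 for the change between times were also taken only from probes whose strains do not overlap at 3 days. Lists with fewer than 5 genes in the comparison are counted only: arachidonic acid metabolism (2 genes), endothelial and blood cell markers (3), nitric oxide, endothelin and natriuretic genes (1), with 0 called in each, and podocyte markers had none. The members and lists were chosen with earlier results of these data known. Alternatives covered direction, centring, scaling, missing values, blocks and left-out pairs. Precision is limited by the number of rat pairs, 3 per strain and time, since both arrays of a pair carry the same rats. Overlapping or closely related genes can share a probe's signal.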

Additional observations from a re-analysis of the deposited data

Results flagged for a closer look

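For 11 of the named genes every pair of SS lay on one side of 0 and every pair of SS-13BN/Mcw on the other. Of the 704 probes with all 6 pairs this held for 21 (2.98 percent), 8 with SS positive and 13 with SS negative. The test of the difference passed for 0 of the 11. Named genes were mainly picked by this same strain difference, which favours such genes, so their number is no support for it. Positive in SS and negative in SS-13BN/Mcw were Nid1 (difference 0.57), Tubb5 (0.50), Ctsl (0.38), Ptpmt1 (0.60) and Tcp1 (0.20). Negative in SS and positive in SS-13BN/Mcw were Pdgfa (-0.68), Sdc4 (-0.29), Ddx39b (-0.29), Ldhb (-0.32), Fxyd2 (-0.20) and Nqo1 (-0.20). These signs are those of pair means. Only in Nid1 and Ptpmt1 did both arrays of every pair have the sign of the pair. In the others at least 1 pair joined arrays of opposite sign. In pair 1 of SS, for example, the arrays stood at -0.083 and 0.82 for Tubb5 and at 0.13 and -0.58 for Ldhb. Groups of 3 pairs were not tested for outlying samples.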

How the results depend on the processing

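Counts of probes passing for the strain difference at 3 days (0 in the fit reported) were 7 with arrays scaled to 1 spread, 5 after quantile normalization, 7 in the array-level fit, 1 where 1 orientation was enough, 2 from the arrays with the low-numbered rat in Cy5 (an alternative chosen after seeing the data) and 0 to 1 when a pair was left out. They were 0 with arrays turned by their dyes, without centring, with all 3 pairs required, with the compared groups alone, with robust eBayes, and from the arrays with that rat in Cy3. Hsd11b1 and Gnrhr were the 2 from the Cy5 arrays. Where 1 orientation was enough the probe was Tf, the iron carrier transferrin (0.64, adjusted p = 0.0426, limma, over 1035 probes), which is outside the naming rule and was chosen after its value was seen. For the mean of both strains the count of 40 was 479 with arrays turned, 65 after quantile normalization, 71 in the array-level fit, 25 with the compared groups alone, 59 with arrays scaled, and between 8 and 43 when a pair was left out. For 3 days minus overnight the count was 0 to 1 when a pair was left out and 0 under every other setting run.

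With the low-numbered rat as replicate block, 0 probes passed for the strain difference (smallest adjusted p 0.0903, limma; 69 with unadjusted p under 0.05), 41 for the mean and 0 for 3 days minus overnight. With the pair number as replicate block across strains, 0 of 780 passed for the strain difference (52 with unadjusted p under 0.05) and 0 for the mean (106 with unadjusted p under 0.05). The numbers name different rats in the strains, and deviations of pairs of one number did not correlate positively (r = -0.326, -0.108 and -0.374), so they do not pair the samples.

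With 1 array of each pair turned by its dyes, positive strain differences turned negative for Lrp2 -0.31, Kap -0.14, Col1a1 -0.10, Rpl35a -0.10, Prep -0.083, Hsd17b10 -0.073, Slc15a2 -0.072, B2m -0.064, Slc12a2 -0.063, Akr7a3 -0.059, Cfl1 -0.051, Mt2A -0.044, Sgk1 -0.044, Col3a1 -0.041, Ptpmt1 -0.039, Serpinh1 -0.038, Anpep -0.038, Glul -0.030, Irf1 -0.030, Rpl15 -0.028 and Serpina3n -0.0081, and negative ones positive for Ppp1r1a 0.0017, Fabp3 0.0035, Hk1 0.0057, Atp5f1c 0.015, Cox5b 0.015, Sdc4 0.021, Fxyd2 0.024, Hsd11b2 0.026, Pdgfa 0.029, Aldoa 0.036, Tdo2 0.042, Acsl1 0.045, Eno1 0.054, Ptprf 0.066, Msmo1 0.066, Gadd45a 0.076, Ddit3 0.076, Aldh1a1 0.078, Egf 0.13, Prkcz 0.17 and Cd44 0.25. The mean of both strains turned sign for Atp1b1 -0.13, Mt2A -0.21, Gsta2 0.15, Aadat 0.095 and Slc15a2 0.26, and 3 days minus overnight for Serpinh1 -0.065, Hsd11b2 0.11 and Gcgr 0.025. The median strain difference of a list turned sign for extracellular matrix (-0.0062), fatty acid oxidation (0.045), glycolysis (0.0013), immediate early genes (0.072), the renin-angiotensin list (0.026), the respiratory chain (0.0080) and the thick ascending limb (0.0017). The strain difference of Mt2A was -0.014 without centring, -0.0089 with arrays scaled, -0.034 after quantile normalization and -0.041 from the Cy5 arrays. From the Cy3 arrays Psmc5 was -0.0086, Tcp1 -0.040, Mvd 0.099 and Fasn -0.026. With a pair left out, the strain difference ran from -0.077 to 0.11 for Mt2A, -0.013 to 0.12 for Fasn and -0.0024 to 0.35 for Irf1.

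The limits are the few rat pairs, the unstated log base and numerator, and the slide order that goes with strain. Signal over background is not given in the deposited values, so dim probes could not be told from bright ones. Probes missing on an array drop a pair from the mean, and 120 of 824 probes lacked at least 1 pair.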
